A study of Mus musculus with 9 samples.

Results

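The 10 genes described here are the mitophagy kinase Pink1 and 9 genes listed as mitophagy receptors: Optn, Calcoco1, Sqstm1, Tax1bp1, Bnip3, Bnip3l, Fundc1, Bcl2l13 and Phb2. They were taken by symbol from a table of 55453 lines that carry mouse gene symbols, and all 10 were found and passed the filter on low counts that left 13568 tested genes. RNA was sequenced from ST2 cells, a mouse stromal line of wild-type genotype that was derived from bone marrow of BC8 mice kept in long-term culture. The 9 libraries formed 3 groups of 3. In the fed 24 h group, ST2 cells had been given human neutrophils for 24 h. In the fed 3 h group the feeding lasted 3 h. The unfed 24 h group received no neutrophils and was collected at 24 h. The neutrophils had been frozen for at least 18 h, carried the membrane dye eF670 and were added at 10 per ST2 cell.

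Both fed groups hold only the cells sorted for a dye signal of at least a whole neutrophil, so being fed and being selected for uptake cannot be told apart. There were no unfed libraries at 3 h, so fed 3 h against unfed 24 h differs in time as well as in feeding, and the 2 cannot be told apart there. ST2 is 1 cell line, and the labels number the replicates without saying that they were separate cultures, so p-values measure only the spread between these libraries. In such bulk RNA, fewer cells with a transcript and less of it per cell cannot be told apart. The 3 comparisons share libraries and are not independent of each other.

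Mitophagy is the removal of mitochondria by autophagy. On healthy mitochondria the kinase PINK1 is imported, cut and degraded. On damaged ones it builds up at the surface and phosphorylates ubiquitin. Soluble receptors such as optineurin (Optn), p62 (Sqstm1) and TAX1BP1 bind the ubiquitin chains and, through a short motif, the LC3 proteins of the growing autophagosome. BNIP3, NIX (Bnip3l), FUNDC1 and BCL2L13 sit in the outer mitochondrial membrane and bind LC3 without ubiquitin, and PHB2 of the inner membrane is exposed when the outer membrane breaks. Bnip3 is a textbook target of the hypoxia-inducible factors, and Sqstm1 of the oxidative-stress factor NRF2.

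Total counts ran from 44442664 to 55971275 per library. The ST2 label was checked against 9 stromal markers, of which 8 had at least 10 counts in some library and Thy1 had 0 or 1. Their summed level was 32433 to 34159 CPM (counts relative to the scaled total of the library) in fed 24 h cells, 25913 to 26568 CPM in fed 3 h cells and 29431 to 31695 CPM in unfed cells. Of 10 mouse neutrophil markers, 2 had at least 10 counts (Camp and Mpo), S100a9 and Ngp were at 0 in all libraries, and the summed level was 3.37 to 4.31 CPM in fed 24 h cells, 0.755 to 1.40 CPM in fed 3 h cells and 2.32 to 2.95 CPM in unfed cells. Of 7 macrophage and leukocyte markers, Adgre1 and Tyrobp were at 0, and the sum was 18.4 to 20.6 CPM in fed 24 h cells, 25.2 to 25.8 CPM in fed 3 h cells and 19.1 to 20.6 CPM in unfed cells. Of 4 adipocyte markers, Fabp4 and Cebpa held nearly all counts, Adipoq had 2 to 8 counts in a library and Plin1 was at 0 in all fed 3 h libraries. Their sum was 118 to 131 CPM in fed 24 h cells, 48.0 to 52.2 CPM in fed 3 h cells and 95.4 to 118 CPM in unfed cells. The stromal, neutrophil and adipocyte sums thus all had the order of groups seen for Pink1 and Bnip3, but single markers did not all share it. Raw counts of the stromal marker Col1a1 were 596854 to 721433 in fed 24 h, 601543 to 664127 in fed 3 h and 540336 to 644925 in unfed libraries. Most counts of the neutrophil sum were of 1 gene, Camp, with 30 to 207 counts in a library. For the adipocyte sum the fed 24 h and unfed ranges overlapped. Endothelial and erythroid markers summed to at most 0.189 and 0.240 CPM. Counts from mitochondrially encoded genes made up 1.78% to 2.22% of the fed 24 h libraries, 1.12% to 1.58% of the fed 3 h libraries and 1.48% to 1.61% of the unfed libraries. The rRNA-linked genes Gm42418 and Gm26917 made up 0.201% to 0.350%, 0.0927% to 0.249% and 0.0904% to 0.115% in the same order. The part of these differences in the results was not tested, nor was any part of reads from the human neutrophils counted on mouse genes.

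Promoter sequences of 4 members are shown because these 4 went in different directions with feeding time: Bnip3 and Pink1 were lowest in fed 3 h cells, and Phb2 and Sqstm1 were highest there. Each is the RefSeq window from 250 bases before to 50 bases after the annotated start, build GRCm38.p6, on the gene's own strand. The windows are chr7:138909457-138909756 (minus strand) for Bnip3, chr4:138326247-138326546 (minus strand) for Pink1, chr6:124712039-124712338 (plus strand) for Phb2 and chr11:50210771-50211070 (minus strand) for Sqstm1. Capitals mark the matches described with the motifs further on.
Bnip3: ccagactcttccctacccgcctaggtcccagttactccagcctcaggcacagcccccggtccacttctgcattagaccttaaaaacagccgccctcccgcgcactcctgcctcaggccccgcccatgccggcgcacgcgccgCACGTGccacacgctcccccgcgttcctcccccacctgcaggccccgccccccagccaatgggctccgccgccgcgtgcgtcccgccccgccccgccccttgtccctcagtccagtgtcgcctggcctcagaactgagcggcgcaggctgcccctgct
Pink1: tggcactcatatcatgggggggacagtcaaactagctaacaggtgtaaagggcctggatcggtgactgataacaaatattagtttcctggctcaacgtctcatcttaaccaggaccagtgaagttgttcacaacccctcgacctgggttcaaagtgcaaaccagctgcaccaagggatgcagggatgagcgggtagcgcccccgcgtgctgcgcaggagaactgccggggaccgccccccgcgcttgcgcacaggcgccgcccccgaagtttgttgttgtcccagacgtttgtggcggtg
Phb2: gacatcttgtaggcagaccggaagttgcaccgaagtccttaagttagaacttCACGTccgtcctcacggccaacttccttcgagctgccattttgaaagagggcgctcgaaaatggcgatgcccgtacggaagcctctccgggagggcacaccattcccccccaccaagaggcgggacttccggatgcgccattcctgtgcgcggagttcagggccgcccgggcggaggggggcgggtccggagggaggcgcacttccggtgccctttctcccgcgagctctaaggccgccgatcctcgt
Sqstm1: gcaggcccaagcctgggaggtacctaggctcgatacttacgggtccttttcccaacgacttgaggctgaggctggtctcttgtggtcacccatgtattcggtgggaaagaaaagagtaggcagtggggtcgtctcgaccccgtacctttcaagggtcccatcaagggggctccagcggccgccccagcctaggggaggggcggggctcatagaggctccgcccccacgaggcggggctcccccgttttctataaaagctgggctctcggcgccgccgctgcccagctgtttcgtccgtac

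After 24 h of feeding, 5 of the 10 members were higher than in unfed cells and 2 were lower. Pink1, Optn, Calcoco1, Tax1bp1 and Bnip3 rose by 1.15- to 1.42-fold, while Bcl2l13 and Phb2 fell to 0.869 and 0.843 of the unfed level. For comparison, 14.9% of all tested genes were called higher and 15.9% lower at an adjusted p under 0.05; the number called lower fell to 1426, against 2159 of the 13568, without replicate 1 of the fed 24 h group. The libraries of the 2 groups did not overlap for 8 of the 10 members, as for 43.2% of all tested genes. The median log2 fold change of the members was 0.16, against -0.0013 over all tested genes. Pink1, Bnip3 and Phb2 were called in the opposite direction in fed 3 h against unfed cells, while Tax1bp1 was called higher at both times. In fed 3 h against unfed cells, Sqstm1, Tax1bp1 and Phb2 were higher and Pink1, Bnip3, Bnip3l and Fundc1 were lower. There, 25.1% of tested genes were called higher and 25.5% lower, 50.6% in all. The groups did not overlap for these 7 members, as for 58.2% of tested genes. The members' median log2 fold change was -0.05 there, against -0.0085 over all tested genes. Between the 2 feeding times, fed 24 h cells had 6 members higher and 3 lower than fed 3 h cells, with 30.8% of tested genes called higher and 30.2% lower, 60.9% in all. The groups did not overlap for these 9 members, as for 65.9% of tested genes. The median was 0.39 for the members and -0.0017 for all tested genes.

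**Figure D1:**
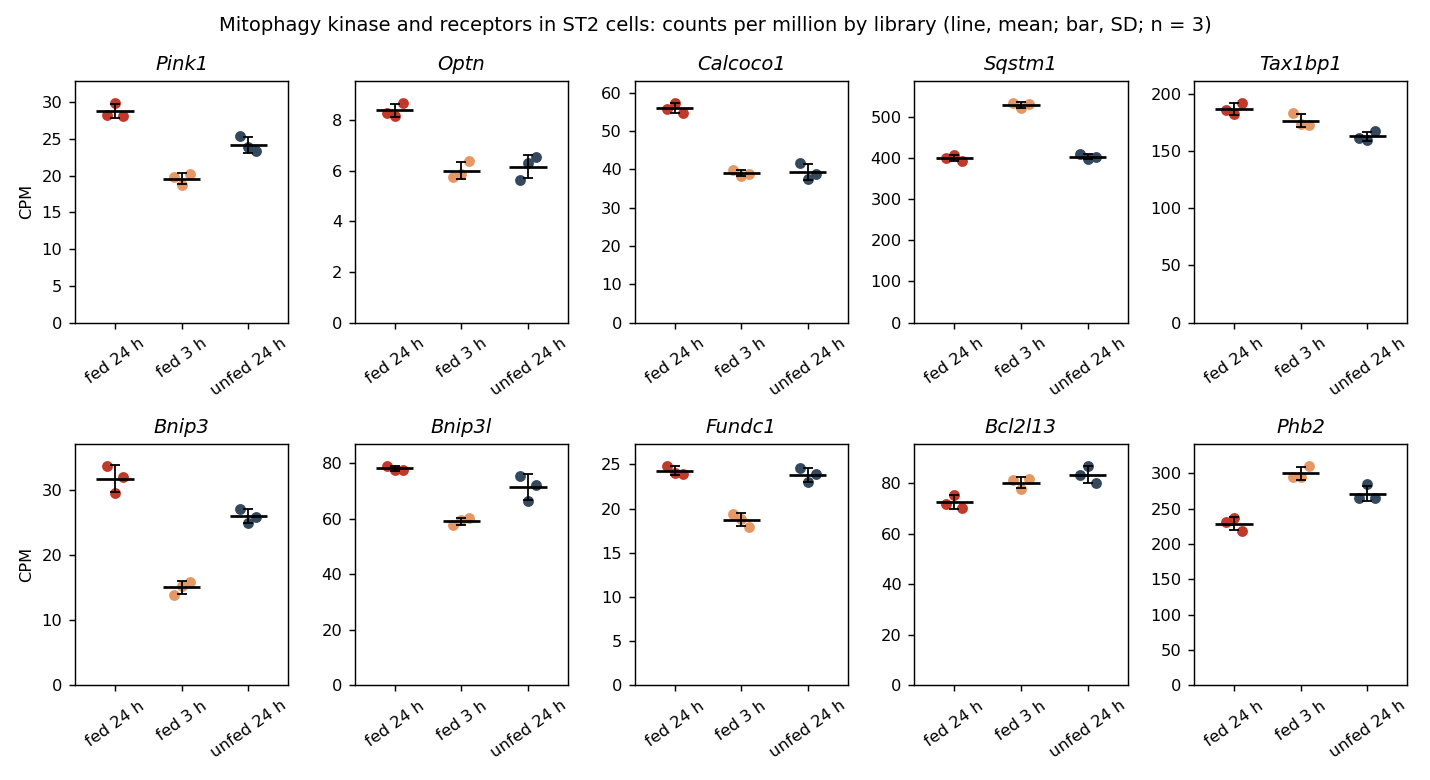
Level of each member in CPM (y axis, from 0) in each library, with the 3 groups fed 24 h, fed 3 h and unfed 24 h along the x axis. Points are single libraries, horizontal lines group means and bars SD (n = 3). Bnip3 averaged 31.7, 15.0 and 25.9 CPM in the 3 groups, and Sqstm1 averaged 399, 528 and 403 CPM.

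Pink1 (chr4:138313409-138326307, minus strand, GRCm38) encodes the kinase itself. Its level was 28.3, 29.9 and 28.1 CPM in fed 24 h cells, 19.8, 18.8 and 20.2 CPM in fed 3 h cells, and 25.5, 23.9 and 23.3 CPM in unfed cells. No library of one group overlapped those of another, with fed 24 h cells highest and fed 3 h cells lowest. Against unfed cells, Pink1 was higher at 24 h (log2 fold change 0.25 ± 0.0540 SE, adjusted p = 0.00304) and lower at 3 h (-0.31 ± 0.0556, adjusted p = 0.000287). Fed 24 h cells exceeded fed 3 h cells 1.47-fold (log2 0.55 ± 0.0547, adjusted p = 3.48e-07).

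Of the soluble receptors, Optn and Calcoco1 were higher in fed 24 h cells than in either other group. Optn (chr2:5020642-5064051, minus strand), the receptor phosphorylated by the kinase TBK1, had 8.29, 8.16 and 8.67 CPM in fed 24 h cells, 5.76, 5.87 and 6.37 CPM in fed 3 h cells, and 5.65, 6.29 and 6.54 CPM in unfed cells. All fed 24 h libraries lay above the others, and the fed 3 h and unfed libraries overlapped. Optn was 1.36-fold higher in fed 24 h cells than in unfed cells (log2 0.44 ± 0.0860, adjusted p = 0.00140), and its difference between fed 3 h and unfed cells was -0.04 ± 0.0888 (adjusted p = 0.761). Calcoco1 (chr15:102706777-102722178, minus strand) is a relative of the human receptor NDP52 that is better known as a receptor for autophagy of the endoplasmic reticulum. It had 55.8, 57.3 and 54.7 CPM in fed 24 h cells, 39.9, 38.3 and 38.8 CPM in fed 3 h cells, and 41.6, 37.6 and 38.8 CPM in unfed cells. The pattern was that of Optn, with fed 24 h cells apart and the other groups overlapping. The log2 fold change of Calcoco1 was 0.51 ± 0.0483 in fed 24 h against unfed cells (adjusted p = 6.37e-06), which 8.78% of tested genes exceeded in size, and -0.01 ± 0.0492 in fed 3 h against unfed cells (adjusted p = 0.866). Against fed 3 h cells, the fed 24 h level was 1.39-fold for Optn (adjusted p = 0.000164) and 1.43-fold for Calcoco1 (adjusted p = 1.78e-07).

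Sqstm1 (chr11:50199366-50210827, minus strand), which encodes p62, followed the other course. It had 399, 407 and 393 CPM in fed 24 h cells, 533, 521 and 530 CPM in fed 3 h cells, and 409, 396 and 403 CPM in unfed cells. The fed 3 h libraries lay above all others, and the fed 24 h and unfed libraries overlapped. Sqstm1 was 1.31-fold higher in fed 3 h than in unfed cells (log2 0.39 ± 0.0389, adjusted p = 7.97e-07) and lower in fed 24 h than in fed 3 h cells (-0.40 ± 0.0389, adjusted p = 2.63e-07). In fed 24 h against unfed cells the difference was -0.01 ± 0.0389 (adjusted p = 0.851). The gene Mrnip lies on the opposite strand, shares 580 bases, 17.3% of the Sqstm1 exons, and had 135 to 297 counts in a library. Its log2 fold changes were 0.33 in fed 24 h against unfed cells, -0.43 in fed 3 h against unfed cells and 0.76 in fed 24 h against fed 3 h cells. The last 2 were opposite in sign to those of Sqstm1, whose value in fed 24 h against unfed cells lay near 0. Whether reads kept their strand is not settled by the protocols, and the part of shared reads was not tested.

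Tax1bp1 (chr6:52713729-52766780, plus strand), an adaptor that binds ubiquitin and LC3 proteins, varied least among the soluble receptors. It had 186, 182 and 192 CPM in fed 24 h cells, 183, 174 and 173 CPM in fed 3 h cells, and 162, 160 and 167 CPM in unfed cells. Both fed groups lay above the unfed libraries and overlapped each other. The log2 fold change was 0.20 ± 0.0415 in fed 24 h against unfed cells (adjusted p = 0.00232) and 0.12 ± 0.0415 in fed 3 h against unfed cells (adjusted p = 0.0275). The second of these calls was lost without fed 3 h replicate 1 (0.095, adjusted p = 0.101) and without unfed replicate 2 (0.10, adjusted p = 0.0747). Fed 24 h against fed 3 h cells gave 0.08 ± 0.0414 (adjusted p = 0.102).

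Among the receptors of the outer membrane, Bnip3 (chr7:138890836-138909519, minus strand) changed most. It had 33.7, 29.5 and 32.0 CPM in fed 24 h cells, 13.9, 15.3 and 15.9 CPM in fed 3 h cells, and 27.0, 24.9 and 25.9 CPM in unfed cells. The groups did not overlap, and the fed 3 h libraries were far below the rest. In fed 3 h cells Bnip3 stood at 0.579 of the unfed level (log2 -0.79 ± 0.0664, adjusted p = 1.41e-07), and 9.06% of tested genes changed by more. In fed 24 h cells it was 1.22-fold higher than in unfed cells (0.29 ± 0.0629, adjusted p = 0.00289) and 2.11-fold higher than in fed 3 h cells (1.08 ± 0.0655, adjusted p = 1.77e-09).

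Bnip3l (chr14:66985239-67008877, minus strand), which encodes NIX, the relative of BNIP3 best known for clearing mitochondria from maturing red cells, had 79.2, 77.8 and 77.6 CPM in fed 24 h cells, 57.7, 59.5 and 60.3 CPM in fed 3 h cells, and 75.6, 66.4 and 72.4 CPM in unfed cells. The fed 3 h libraries lay below all others. Bnip3l was lower in fed 3 h than in unfed cells (log2 -0.27 ± 0.0490, adjusted p = 0.000272) and 1.32-fold higher in fed 24 h than in fed 3 h cells (0.40 ± 0.0488, adjusted p = 3.27e-06). The fed 24 h libraries also lay above the unfed ones, but the difference of 0.13 ± 0.0485 missed the threshold (adjusted p = 0.0528). Without unfed replicate 1 it passed (0.17, adjusted p = 0.0117), and over all alternatives tried its adjusted p ran from 0.0117 to 0.237. Fundc1 (chrX:17556564-17572325, minus strand), a receptor of hypoxia-induced mitophagy, had 24.8, 24.1 and 23.9 CPM in fed 24 h cells, 19.4, 18.8 and 17.9 CPM in fed 3 h cells, and 24.6, 23.0 and 23.9 CPM in unfed cells. Its fed 24 h and unfed libraries overlapped and its fed 3 h libraries lay below both. Fundc1 was lower in fed 3 h than in unfed cells (-0.35 ± 0.0536, adjusted p = 6.36e-05), higher in fed 24 h than in fed 3 h cells (0.37 ± 0.0531, adjusted p = 1.71e-05), and differed by 0.03 ± 0.0524 in fed 24 h against unfed cells (adjusted p = 0.744).

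Bcl2l13 (chr6:120836212-120892842, plus strand) is a BCL2-family protein that can stand in for the yeast receptor Atg32. It had 71.9, 75.5 and 70.2 CPM in fed 24 h cells, 81.3, 77.7 and 81.8 CPM in fed 3 h cells, and 83.3, 87.0 and 80.1 CPM in unfed cells. The fed 24 h libraries were the lowest, and the fed 3 h and unfed libraries overlapped. The log2 fold change was -0.20 ± 0.0463 in fed 24 h against unfed cells (adjusted p = 0.00418), -0.06 ± 0.0463 in fed 3 h against unfed cells (adjusted p = 0.333) and -0.15 ± 0.0464 in fed 24 h against fed 3 h cells (adjusted p = 0.0125). The last call was lost without fed 24 h replicate 1 (-0.13, adjusted p = 0.0513) and without fed 24 h replicate 3 (-0.12, adjusted p = 0.0609). The gene Bid, on the opposite strand, shares 628 bases, 6.91% of the Bcl2l13 exons, and had 4110 to 5931 counts in a library, so some reads of either gene could be counted for the other. The log2 fold change of Bid was -0.07 in fed 24 h against unfed cells (adjusted p = 0.256), 0.36 in fed 3 h against unfed cells (adjusted p = 8.87e-06) and -0.43 in fed 24 h against fed 3 h cells (adjusted p = 6.72e-07), the last in the direction of Bcl2l13. The part of shared reads in these values was not tested.

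Phb2 (chr6:124712336-124716950, plus strand), the prohibitin of the inner membrane, ran opposite to Pink1 and Bnip3. It had 232, 237 and 218 CPM in fed 24 h cells, 295, 294 and 311 CPM in fed 3 h cells, and 265, 284 and 266 CPM in unfed cells. The groups did not overlap, with fed 24 h cells lowest and fed 3 h cells highest. Phb2 was lower in fed 24 h than in unfed cells (log2 -0.25 ± 0.0463, adjusted p = 0.00116) and lower in fed 24 h than in fed 3 h cells (-0.39 ± 0.0463, adjusted p = 2.56e-06). It was 1.11-fold higher in fed 3 h than in unfed cells (0.14 ± 0.0462, adjusted p = 0.0163), a call lost without fed 3 h replicate 3 (0.12, adjusted p = 0.0745) or unfed replicate 3 (0.13, adjusted p = 0.0622).

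**Figure D2:**
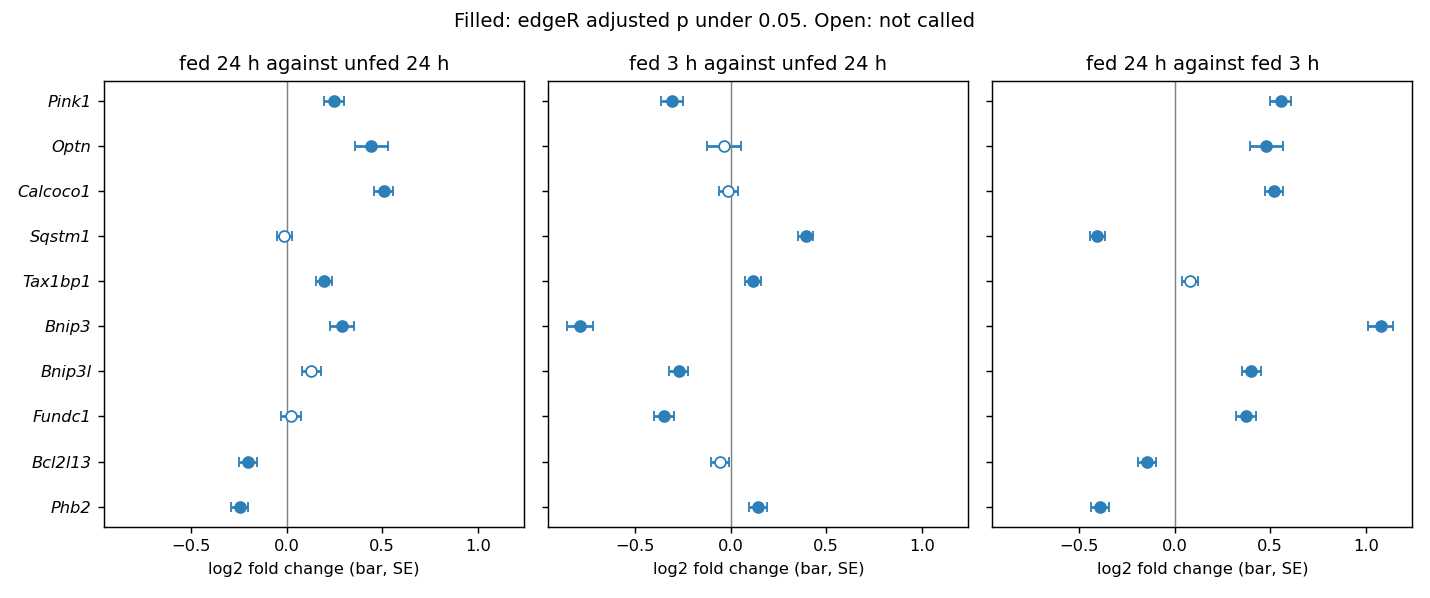
Log2 fold change of each member (x axis) with its SE as bars, filled where called, in fed 24 h against unfed cells, fed 3 h against unfed cells and fed 24 h against fed 3 h cells. Pink1 (0.25, -0.31 and 0.55), Bnip3 (0.29, -0.79 and 1.08) and Phb2 (-0.25, 0.14 and -0.39) lie on opposite sides of 0 in the comparisons with unfed cells at the 2 times.

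Ordered by the range of their 3 group means on the log2 scale, the members ran from Bnip3 (1.08, wider in 8.00% of tested genes) through Pink1 (0.55), Calcoco1 (0.52), Optn (0.48), Sqstm1 (0.40), Bnip3l (0.40), Phb2 (0.39) and Fundc1 (0.37) to Bcl2l13 and Tax1bp1 (0.20 each). In Bnip3, Pink1, Calcoco1, Optn, Bnip3l and Fundc1 the fed 24 h mean was the highest and the fed 3 h mean the lowest. Of these, the fed 3 h and unfed libraries overlapped for Calcoco1 and Optn. The fed 24 h and unfed libraries overlapped for Fundc1, and that difference missed the threshold for Bnip3l. For Sqstm1 and Phb2 the fed 3 h mean was highest and the fed 24 h mean lowest, with fed 24 h and unfed libraries overlapping for Sqstm1. The share of all tested genes with either order was not determined. Within a group, the coefficient of variation over 3 libraries was 1.08% to 7.43%, lowest for Bnip3l in fed 24 h cells and highest for Optn in unfed cells.

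Levels of different genes were compared as CPM per kb of exon, with all annotated exons of a gene merged. The transcripts in use can be shorter than this length, so comparisons between genes are approximate. Sqstm1 had the highest level, at 119 CPM per kb in fed 24 h cells, 157 in fed 3 h cells and 120 in unfed cells. Its mean over the 9 libraries lay above 97.8% of the 13446 genes ranked. Phb2 followed at 61.6, 80.7 and 73.0 CPM per kb, with its mean over the 9 libraries above 95.4% of genes. The membrane receptors were lower, with Bnip3l at 20.3, 15.3 and 18.5, Bnip3 at 14, 6.63 and 11.5, Fundc1 at 10.3, 7.96 and 10.1 and Bcl2l13 at 7.98, 8.83 and 9.18 CPM per kb in fed 24 h, fed 3 h and unfed cells. Pink1 had 10.8, 7.34 and 9.07 CPM per kb in the same order, and Optn, at 2.23, 1.6 and 1.64 CPM per kb, was the lowest member. Sqstm1 held 43.0% to 43.6% of the summed per-kb level of the 10 members in fed 24 h libraries, 50.3% to 51.1% in fed 3 h libraries and 42.9% to 43.7% in unfed libraries. The per-kb level of Bnip3l was 1.38 to 1.55 times that of Bnip3 in fed 24 h libraries, 2.22 to 2.45 times in fed 3 h libraries and 1.56 to 1.64 times in unfed libraries, so the balance between these relatives lay further toward Bnip3l in every fed 3 h library.

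**Figure D3:**
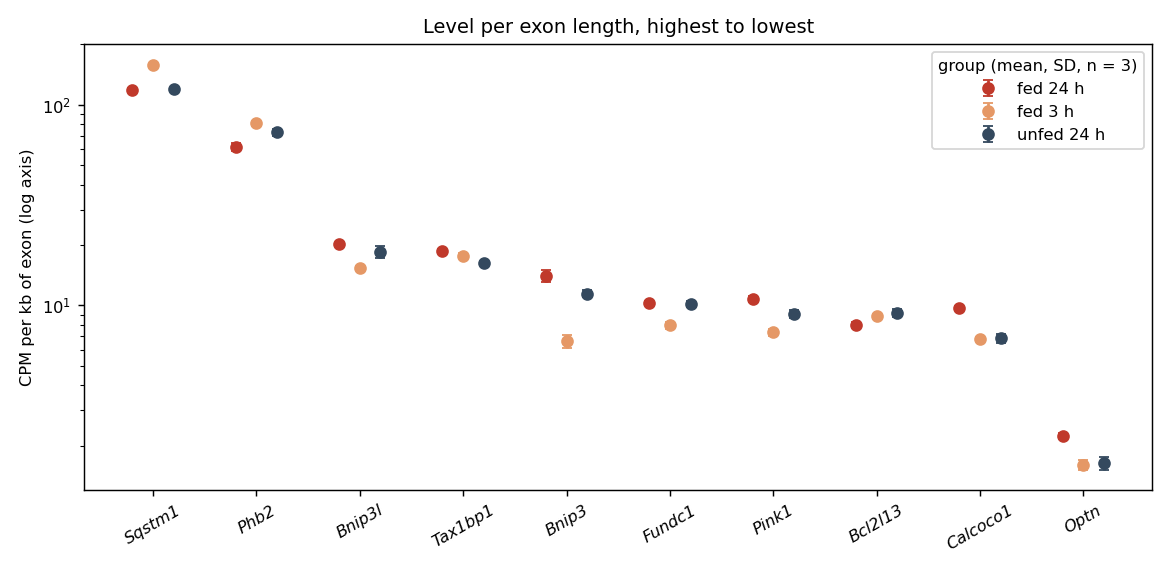
Level of the 10 members in CPM per kb of exon (log axis) in fed 24 h, fed 3 h and unfed 24 h cells, as group means with SD (n = 3). Sqstm1 lies highest in each group, at 119, 157 and 120 CPM per kb, and Optn lowest, at 2.23, 1.6 and 1.64 CPM per kb.

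RefSeq promoter windows were matched for 9 of the 10 members, 10 windows in all because Tax1bp1 has 2 annotated starts; Bnip3l was not matched. The hypoxia-inducible factor core ACGTG, searched on both strands, was found in 3 windows, against 19.6% of 32851 promoters in the table. The Bnip3 window held it on both strands, with first bases at positions -108 and -107 counted from the start, inside the palindrome CACGTG, the E-box, which contains ACGTG and was found in 7.15% of promoters. The other matches lay at position -155 of the second Tax1bp1 start and, on the reverse strand, at -198 of Phb2. There the capitals spell CACGT, the reverse complement of ACGTG. The longer form TCACGTGA, bound by TFEB and TFE3, was in no member window and in 0.974% of promoters. The core of the antioxidant response element, TGACNNNGC, was added after the data were seen. It was found at the second start of Tax1bp1 and at 2 positions of the Bcl2l13 window (-113 and -92), against 12.4% of promoters. A match is a description of these letters only, and a window without one says only that the letters are not in it.

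**Figure D4:**
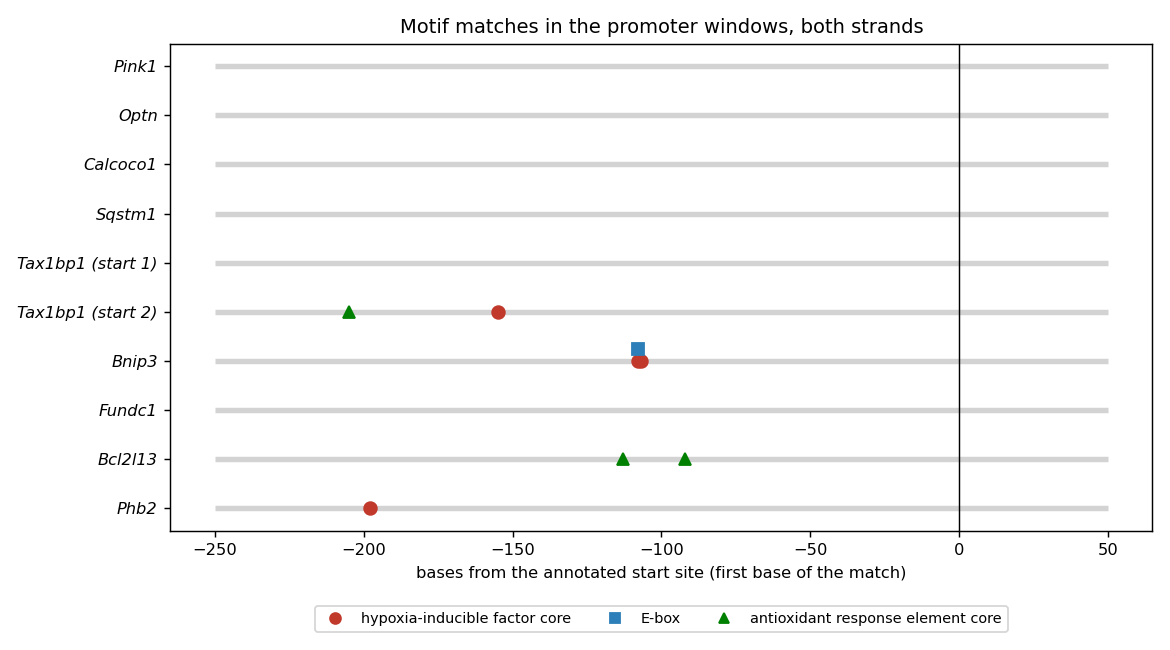
Positions of motif matches in the 10 member windows (x axis, bases from the annotated start; each grey line is a window from 250 bases before to 50 bases after it). Bnip3 carries the overlapping E-box and hypoxia-inducible factor core at position -108, and the Pink1 and Sqstm1 windows hold no match.

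The rest of the mitophagy pathway was followed with 8 lists holding 94 tested genes. In fed 24 h against unfed cells, 8 of the 94 were higher and 24 lower, and the number lower was 15 without fed 24 h replicate 1. Of all tested genes, 14.9% were higher and 15.9% lower there. In fed 3 h against unfed cells 34 of the 94 were higher and 22 lower, beside 25.1% and 25.5% of all tested genes. In fed 24 h against fed 3 h cells 27 were higher and 44 lower, beside 30.8% and 30.2%. The counts of the single lists that follow are to be read against these same shares. The medians of the log2 fold changes were -0.03, 0.02 and -0.07, against -0.0013, -0.0085 and -0.0017 over all tested genes.

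Among genes of the import, processing and turnover of PINK1, most called genes lay on the side opposite to Pink1 itself. Of 20 tested, 0 were higher and 10 lower in fed 24 h than in unfed cells (6 lower without fed 24 h replicate 3 or without unfed replicate 2), 11 were higher and 3 lower in fed 3 h than in unfed cells, and 4 were higher and 13 lower in fed 24 h than in fed 3 h cells. Tomm70a, a receptor of the outer-membrane import complex, averaged 120 ± 2.10 CPM in fed 24 h cells, 201 ± 3.03 CPM in fed 3 h cells and 143 ± 12 CPM in unfed cells (SD, n = 3 each). Its log2 fold change was -0.25 in fed 24 h against unfed cells (adjusted p = 0.00238), 0.49 in fed 3 h against unfed cells (adjusted p = 1.69e-06) and -0.74 in fed 24 h against fed 3 h cells (adjusted p = 9.03e-09). Tomm40, the import pore, and Hspa9, the import motor, had the same order of groups, with 0.42 and 0.45 in fed 3 h against unfed cells (adjusted p = 6.23e-05 and 2.19e-06). Oma1, a protease that cuts PINK1 when import stalls, went the other way, at 8.66 ± 0.287 CPM in fed 24 h cells, 4.94 ± 0.416 CPM in fed 3 h cells and 8.34 ± 0.643 CPM in unfed cells (log2 -0.75 in fed 3 h against unfed cells, adjusted p = 6.30e-06).

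Calcoco2, the mouse NDP52 gene, had 0 counts in all 9 libraries, which allows up to 0.0536 to 0.0667 CPM in a library. This limit is 3 counts and covers counting error only. Of 10 tested mitochondrial ubiquitin ligases and deubiquitinases, 3 were higher and 1 lower in fed 3 h than in unfed cells, and 1 was higher and 3 lower in fed 24 h than in unfed cells, of which only 1 was lower without fed 24 h replicate 1 and 0 were higher without fed 24 h replicate 3 or unfed replicate 2. Usp30, which removes ubiquitin from mitochondria, was higher in fed 3 h than in unfed cells (log2 0.23, adjusted p = 0.00147) and lower in fed 24 h than in fed 3 h cells (-0.17, adjusted p = 0.00962). Of 13 kinases and phosphatases that act on receptors, 1 was higher and 4 lower in fed 24 h than in unfed cells, 6 were higher and 1 lower in fed 3 h than in unfed cells, and 2 were higher and 8 lower in fed 24 h than in fed 3 h cells. Tbk1, the kinase of Optn, averaged 53.1 ± 2.62 CPM in fed 24 h cells, 46.3 ± 0.568 CPM in fed 3 h cells and 47.5 ± 1.82 CPM in unfed cells. It was higher in fed 24 h than in fed 3 h cells (0.20, adjusted p = 0.00223) and in unfed cells (0.16, adjusted p = 0.0202), the second call, the only one of the list in that direction, being lost without fed 24 h replicate 3 (adjusted p = 0.0935) or unfed replicate 2 (adjusted p = 0.0783), while 2 genes of the list were higher without fed 24 h replicate 2. Ulk1, the kinase that starts autophagosomes, passed no test (log2 0.11, 0.02 and 0.09 in the 3 comparisons). Pgam5, a phosphatase that acts on FUNDC1, was higher in fed 3 h than in unfed cells (0.43, adjusted p = 1.58e-06) and lower in fed 24 h than in unfed cells (-0.22, adjusted p = 0.00249).

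**Figure D5:**
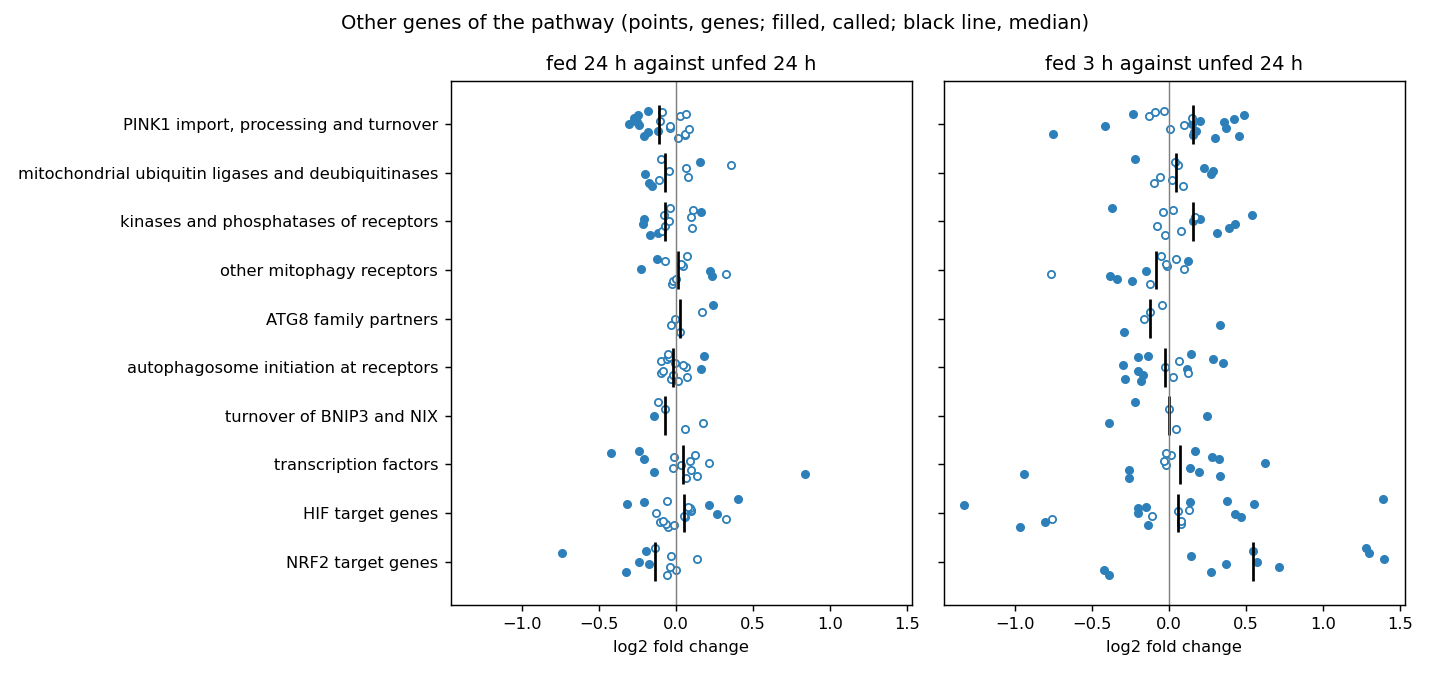
Log2 fold change (x axis) of each tested gene in the pathway lists, in fed 24 h against unfed cells (left) and fed 3 h against unfed cells (right). Points are genes, filled where called, and black lines are list medians. Of the 20 genes of PINK1 import, processing and turnover, 10 were lower and 0 higher in fed 24 h against unfed cells, and 11 were higher and 3 lower in fed 3 h against unfed cells.

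A list of other mitophagy receptors also held Vdac1, Rhot1 and Rhot2, which encode outer-membrane proteins that are not themselves such receptors. Of its 12 tested genes, 2 were higher and 2, Phb and Vdac1, lower in fed 24 h than in unfed cells. Only 1 was lower there with no filter, with the replicate block, without fed 24 h replicate 1 or 3, or without unfed replicate 2 or 3. In fed 3 h against unfed cells 1 was higher and 4 lower (0 higher with no filter, or without fed 3 h replicate 1 or unfed replicate 3). Nbr1, a ubiquitin receptor that works with p62, did not share the course of Sqstm1. It averaged 145 ± 2.64 CPM in fed 24 h cells, 94.8 ± 2.23 CPM in fed 3 h cells and 124 ± 2.63 CPM in unfed cells, higher at 24 h (log2 0.23, adjusted p = 0.000596) and lower at 3 h (-0.39, adjusted p = 1.21e-06) than in unfed cells. Phb, the partner of Phb2 in the prohibitin ring, was lower in fed 24 h than in unfed cells (-0.23, adjusted p = 0.00405) and in fed 3 h cells (-0.32, adjusted p = 5.72e-05), and differed by 0.09 in fed 3 h against unfed cells (adjusted p = 0.142). Fkbp8, another outer-membrane receptor, was lower in fed 3 h than in unfed cells (-0.24, adjusted p = 0.000343) and differed by -0.02 in fed 24 h against unfed cells (adjusted p = 0.786). Of the ATG8 proteins that the receptors bind, Map1lc3b was higher in fed 24 h than in unfed cells (0.24, adjusted p = 0.00289). Gabarap was lower in fed 3 h than in unfed cells (-0.29, adjusted p = 0.000935) and Gabarapl1 higher (0.33, adjusted p = 2.55e-05). The other 2 of these 5 genes passed neither comparison with unfed cells. However, 2 of the 5 were higher in fed 24 h cells with no filter or without unfed replicate 1, and 2 were lower in fed 3 h cells without unfed replicate 3.

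Of 15 genes of autophagosome initiation, 2 were higher and 0 lower in fed 24 h than in unfed cells (1 lower without unfed replicate 1), 4 were higher and 7 lower in fed 3 h than in unfed cells (2 higher without fed 3 h replicate 3), and 7 were higher and 5 lower in fed 24 h than in fed 3 h cells. Wipi1, which binds the lipid of the growing membrane, was higher at 24 h (0.18, adjusted p = 0.00466) and lower at 3 h (-0.14, adjusted p = 0.0128) than in unfed cells. Of 5 genes that limit BNIP3 and NIX protein, 1 was higher and 2 were lower in fed 3 h than in unfed cells, and 0 were higher and 1 lower in fed 24 h than in unfed cells. The ligase subunit Fbxl4 was lower in fed 3 h than in unfed cells (-0.39, adjusted p = 0.000422) and 0.18 apart in fed 24 h against unfed cells (adjusted p = 0.0713), which passed without unfed replicate 1 (0.23, adjusted p = 0.0299). The mitochondrial phosphatase Pptc7 was higher in fed 3 h than in unfed cells (0.25, adjusted p = 0.00112). Its value of -0.15 in fed 24 h against unfed cells passed narrowly (adjusted p = 0.0498) and was lost in most alternatives, with adjusted p up to 0.183.

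Of 14 transcription factors of the pathway, 1 was higher and 4 lower in fed 24 h than in unfed cells (3 higher without fed 24 h replicate 2, 2 higher without unfed replicate 2 or with the DESeq2 Wald test), 7 were higher and 3 lower in fed 3 h than in unfed cells, and 4 were higher and 8 lower in fed 24 h than in fed 3 h cells. Hif1a passed no test (log2 0.03, -0.02 and 0.05 in the 3 comparisons), whereas Epas1, which encodes the related factor HIF-2 alpha, averaged 71.9 ± 4.92 CPM in fed 24 h cells, 20.9 ± 1.5 CPM in fed 3 h cells and 40.2 ± 3.94 CPM in unfed cells. Its order of groups was that of Bnip3, with log2 fold changes of 0.84 in fed 24 h against unfed cells (adjusted p = 3.40e-06) and -0.94 in fed 3 h against unfed cells (adjusted p = 8.39e-08). The group means of Pink1, Calcoco1, Optn, Bnip3l and Fundc1 had this order too, and a link between Epas1 and Bnip3 was not tested. Foxo3 and Arnt of the same list were also lower in fed 3 h than in unfed cells and higher in fed 24 h than in fed 3 h cells. In fed 24 h against unfed cells they differed by 0.09 (adjusted p = 0.143) and 0.06 (adjusted p = 0.327). Nrf1 and Yy1 ran opposite to Epas1. They were higher in fed 3 h than in unfed cells (0.33 and 0.17, adjusted p = 1.24e-05 and 0.00568). In fed 24 h against unfed cells they were lower (-0.21 and -0.24, adjusted p = 0.00207 and 0.00133), as was Trp53 (-0.42, adjusted p = 8.86e-06). Of 19 HIF target genes tested, 3 were higher and 2 lower in fed 24 h than in unfed cells (1 lower without fed 24 h replicate 3 or unfed replicate 2), 6 were higher and 7 lower in fed 3 h than in unfed cells, and 8 were higher and 6 lower in fed 24 h than in fed 3 h cells (5 higher without fed 3 h replicate 1). In fed 24 h against unfed cells these counts lie close to the shares of all tested genes, 14.9% higher and 15.9% lower, and in fed 3 h against unfed cells the shares of all tested genes were 25.1% and 25.5%. Pdk1 fell in fed 3 h against unfed cells (-1.33, adjusted p = 2.20e-10), and Vegfa, a vessel growth factor, rose (1.39, adjusted p = 2.59e-08). Of 11 NRF2 target genes other than Sqstm1, 9 were higher and 2 lower in fed 3 h than in unfed cells, 0 were higher and 5 lower in fed 24 h than in unfed cells (3 lower without fed 24 h replicate 2 or unfed replicate 3, and 1 higher without fed 3 h replicate 1 or 3, with no filter, or with only the 6 libraries compared), and 2 were higher and 9 lower in fed 24 h than in fed 3 h cells. Hmox1, heme oxygenase, averaged 127 ± 2.54 CPM in fed 24 h cells, 306 ± 29.2 CPM in fed 3 h cells and 116 ± 2.98 CPM in unfed cells, and was higher in fed 3 h than in unfed cells (1.39, adjusted p = 8.58e-11). The median log2 fold change of the NRF2 list was -0.14, 0.55 and -0.74 in fed 24 h against unfed, fed 3 h against unfed and fed 24 h against fed 3 h cells.

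The genes with the profile most like each of the 3 widest-ranging members were found by the root mean square difference of centred log2 CPM over the 9 libraries, among 8709 genes with a mean of at least 10 CPM. Nearest to Bnip3 were Zfp521 (0.0398), Tfcp2 (0.0576) and Tle6 (0.0705). Zfp521 averaged 30.9 ± 1.14 CPM in fed 24 h cells, 15.3 ± 1.02 CPM in fed 3 h cells and 25.5 ± 1.59 CPM in unfed cells. Nearest to Pink1 were Tapbp (0.0342), Kdm4b (0.0369) and Cbr4 (0.0390), and nearest to Calcoco1 were Pdgfd (0.0522), Etfrf1 (0.0532) and Aldh3a1 (0.0579).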

How the data were processed

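RNA was measured in 9 libraries of ST2 cells. The authors deposited raw read counts per mouse gene symbol, 1 column per library, with no normalization; 0 value columns went unused. STAR 2.7.0f, featureCounts from Subread 1.6.4, MultiQC 1.7 and the builds GRCm38.p6 and GRCh38.p13 are named, per the submitters' processing notes. Annotation release, strand setting, handling of multi-mapped reads and use of the human build were not given in the sources used here. Protocols name both a stranded mRNA kit and an amplified cDNA kit, so overlapping genes are uncertain. In 26 lines the symbol had become a date.

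Counts were tested in R 4.3.3 with edgeR 4.0.16 (quasi-likelihood F-test, TMM factors, filterByExpr), in 1 fit of all 9 libraries with group as the only term, two-sided. P-values were adjusted by Benjamini-Hochberg over the 13568 genes that passed the filter, with a threshold of 0.05. CPM are counts relative to the TMM-scaled library total. SE is the size of the log2 fold change divided by the root of F. Alternatives were DESeq2 1.42.0, limma 3.58.1 (voom), other filters and scalings, a replicate block, and leaving out each library. Total counts were 44442664 to 55971275; limits from counts cover counting error only.

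Coordinates and exon lengths are from GENCODE M21 (GRCm38), promoters from RefSeq (GRCm38.p6). All 10 members are named. Of each other list, up to 3 called genes per direction with the largest log2 fold change and a mean of at least 5 CPM could be named, and 8 genes regardless of their test. The members and lists were chosen with earlier results of these data known. Protein sequences were not used here. The result of 1 named gene is not reported here.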

Additional observations from a re-analysis of the deposited data

Results flagged for a closer look

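In 3 members the 2 feeding times lay on opposite sides of the unfed libraries, each past the threshold. The difference between fed 24 h and fed 3 h cells follows from these 2 values, so it is given as a description and its test adds no separate support. For Pink1 this difference was 0.55 on the log2 scale, with values of 0.25 at 24 h and -0.31 at 3 h against unfed cells. For Bnip3 it was 1.08, with 0.29 at 24 h and -0.79 at 3 h. For Phb2 it was -0.39, with -0.25 at 24 h and 0.14 at 3 h. The unfed libraries are shared by both times and were all collected at 24 h. No group had enough libraries for a check on outlying ones.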

How the results depend on the processing

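Of 510 values (30 member results under 17 alternatives each), 492 kept their direction and their side of the threshold, 7 lost the call, 6 gained it and 5 changed sign. The sign changes were in uncalled values near 0 on the log2 scale; the cause was not tested beyond the construction itself, fewer samples. They were Sqstm1 in fed 24 h against unfed cells (-0.026 to 0.0043 over the libraries left out; 0.0043 without fed 24 h replicate 3, 0.0012 without unfed replicate 1), Optn in fed 3 h against unfed cells (-0.095 to 0.0087; 0.0087 without unfed replicate 3) and Calcoco1 in fed 3 h against unfed cells (-0.045 to 0.030; 0.0030 without fed 3 h replicate 2, 0.030 without unfed replicate 1). The same held for Fkbp8 in fed 24 h against unfed cells (-0.045 to 0.018; 0.018 without fed 24 h replicate 3, 0.012 without unfed replicate 1) and Hif1a in fed 3 h against unfed cells (-0.062 to 0.0083; 0.0083 and 0.0051 without fed 3 h replicates 2 and 3, 0.0082 without unfed replicate 1). Bnip3l in fed 24 h against unfed cells was also called with DESeq2 size factors (adjusted p = 0.0460), a stricter filter (0.0383), the DESeq2 Wald test (0.0411), limma-voom (0.0469) and without mitochondrially encoded and rRNA-linked genes (0.0490). Tax1bp1 in fed 3 h against unfed cells was not called with no filter (adjusted p = 0.0816), which left 2 members called higher there.

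Leaving out each library in turn, members called higher numbered 5 to 6, 2 to 3 and 6 in fed 24 h against unfed, fed 3 h against unfed and fed 24 h against fed 3 h cells, and members called lower 2, 4 and 2 to 3. Tested genes called higher numbered 1488 to 2184, 3007 to 3467 and 3815 to 4347, and those called lower 1426 to 2241, 2985 to 3462 and 3696 to 4197, in the same order. Other scalings moved the median of all genes by less than 0.01 on the log2 scale.

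Of 9 same-numbered pairs of libraries in different groups, 0 had a correlation of deviations over 0.1 (range -0.163 to 0.0578), so this check showed no pairing by number. With 3 libraries in a group it cannot decide whether a number marks a shared culture or day. With the replicate block, 5 members were higher and 2 lower in fed 24 h against unfed cells, 3 and 4 in fed 3 h against unfed cells, and 6 and 3 in fed 24 h against fed 3 h cells, so no member call changed.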
